A study of Mus musculus with 5 samples.

Results

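The genes described here encode proteins of fast and adult skeletal muscle: Tnnt3, Myh1, Acta1, Atp2a1, Ckm, Mylpf, Tnnc2, Pvalb, Tnni2 and Mb. They were found as all probe sets for which the platform annotation gives exactly 1 gene symbol and that symbol, or a synonym, is one of these 10 genes. Each probe set consists of several short oligonucleotides designed for a transcript, and some of them may also match related transcripts. The rule found all 10 genes, of 8251 named on the array, by 16 of its 12422 probe sets, and 14 of the 16 were bright enough to be tested among 7811. The genes were picked with their values on these same arrays known, so their levels and differences, and the counts past a threshold, are given as a description.

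The study measured RNA, labelled as murine lung, on 5 Affymetrix mouse arrays. The labels give the mice as A-J, read here as the strain A/J and not as single animals. They received either saline (2 arrays) or IL-13 (3 arrays) into the trachea. IL-13 is a T helper 2 cytokine that drives mucus production in the airway, and the series is about the goblet cells that make this mucus. The titles number the saline arrays 6 and 48 and the IL-13 arrays 6, 18 and 48, with no unit, so each array is called here by its treatment and title number. Age, sex, other treatments and the number of animals behind an array are not stated, and no treatment has more than 1 array at a title number, so any spread given here is that between arrays, which may be technical. Where several values follow each other, saline comes as 6 and 48 and IL-13 as 6, 18 and 48.

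Skeletal muscle fibres contract when calcium binds troponin C, which frees actin filaments for the myosin heads, and each of these proteins exists in forms used by fast fibres, slow fibres or heart. Fast fibres use the heavy chains of Myh1 and Myh4, the troponins Tnnt3, Tnni2 and Tnnc2, the calcium pump of Atp2a1 and the calcium buffer parvalbumin. Lung has smooth muscle in its airways and vessels, and in mice heart muscle sleeves around its veins. Skeletal muscle lies around it, in the larynx, the mouse oesophagus, the chest wall and the diaphragm.

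Promoters of 4 of the genes are shown as examples, and each of the 4 holds a marked site. The brightest probe set of each was bright on all 5 arrays. That was also so for other genes, such as Pvalb and Mb, whose windows are not shown. Each line gives the 250 bases before the RefSeq start in build GRCm38.p6, 5′ to 3′ on the strand of the gene. Capitals mark CAGCTG (an E-box, the kind of site bound by the MyoD family), CATTCC (bound by TEAD factors) and TATAAA, on either strand. The Acta1 window is chr8:123894776-123895025 (minus strand), that of Atp2a1 chr7:126463074-126463323 (minus strand), that of Ckm chr7:19410844-19411093 (plus strand) and that of Myh1 chr11:67199852-67200101 (plus strand).
Acta1: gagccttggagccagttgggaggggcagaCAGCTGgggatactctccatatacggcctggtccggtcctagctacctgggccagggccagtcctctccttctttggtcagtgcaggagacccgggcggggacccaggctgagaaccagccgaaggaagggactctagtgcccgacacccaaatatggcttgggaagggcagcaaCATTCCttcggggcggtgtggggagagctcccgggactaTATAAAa
Atp2a1: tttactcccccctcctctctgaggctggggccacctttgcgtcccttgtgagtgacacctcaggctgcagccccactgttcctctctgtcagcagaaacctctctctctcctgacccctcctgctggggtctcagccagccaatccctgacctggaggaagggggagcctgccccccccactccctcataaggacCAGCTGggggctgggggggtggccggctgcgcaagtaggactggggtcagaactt
Ckm: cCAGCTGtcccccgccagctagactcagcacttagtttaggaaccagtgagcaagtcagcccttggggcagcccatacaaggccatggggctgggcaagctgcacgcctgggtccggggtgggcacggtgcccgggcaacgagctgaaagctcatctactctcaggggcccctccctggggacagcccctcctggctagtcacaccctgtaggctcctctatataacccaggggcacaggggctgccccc
Myh1: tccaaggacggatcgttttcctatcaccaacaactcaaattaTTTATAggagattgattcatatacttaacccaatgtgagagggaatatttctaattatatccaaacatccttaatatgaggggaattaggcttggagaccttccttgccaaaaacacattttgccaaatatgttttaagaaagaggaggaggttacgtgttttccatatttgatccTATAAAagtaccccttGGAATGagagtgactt

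The RefSeq promoter table held 11 windows of 8 of the genes, of which those of Mb partly overlap, and none for Tnnt3 and Tnni2. CAGCTG was in 6 of the 11 windows, in 5 genes, and in 13% of all 32841 windows of the same length. The wider E-box CANNTG, which includes CAGCTG, was in 9 of the 11 and in 66.2% of all windows. CATTCC was in the Acta1 and Myh1 windows and in 12.6% of all, and TATAAA was in the same 2 windows and in 12.4% of all. The MEF2 motif was in 0 of the 11 windows and in 0.509% of all. In Acta1 the CAGCTG begins 221 bases and the CATTCC 46 bases before the start. A match is a string of letters, and no binding was measured.

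The labelled tissue was checked against lung markers before the muscle genes were read. Scgb1a1, the secretory protein of club cells in the airway, read 22024 to 31024 over the 5 arrays. Sftpc, the surfactant protein of alveolar type II cells, read 17179 on IL-13 18 and 2615 on saline 6, but 194.3 on saline 48, 257.2 on IL-13 6 and 300.5 on IL-13 48. Sftpb, another surfactant protein, read 2114 on IL-13 18 and 67.59 to 231.8 on the other 4 arrays. The club cell marker was thus bright on every array, while Sftpc and Sftpb were highest on IL-13 18 and low on saline 48, IL-13 6 and IL-13 48. Sftpd, another surfactant protein, did not share this and read 121.1 to 217.1, highest on IL-13 6, but its probe set was too dim to be tested. Of the other lung markers, Ager read 4928 on IL-13 18 and 1872 to 2128 on the others, so it was not low there. Foxj1 read 882.7 to 1175 over the 5 arrays. Saline 6 stood apart in salivary gland markers, whose summed intensity over 8 genes was 101248 there and 664 to 930 on the others.

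By its brightest probe set, each of the 10 genes read 1159 or more on all 5 arrays, against a pooled median of 343.0 over all probe sets, and most differed little between arrays. Of the 14 tested probe sets, 7 lay above 10000, in scaled intensity, on every array, as did 1.63% of all tested probe sets. This limit was chosen after the values were seen, and brightness depends on the probes, so it is no measure of how abundant one transcript is against another. For 11 of the 14 the highest array lay less than 2-fold above the lowest, as for 80.6% of all tested probe sets. The median of this fold was 1.35 over the 14 member probe sets, 1.53 over all tested and 1.38 over the 127 tested probe sets above 10000 on all arrays. Saturation, which would narrow these folds, was not tested. In bulk RNA, fewer muscle cells and less RNA per cell cannot be told apart.

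**Figure D1:**
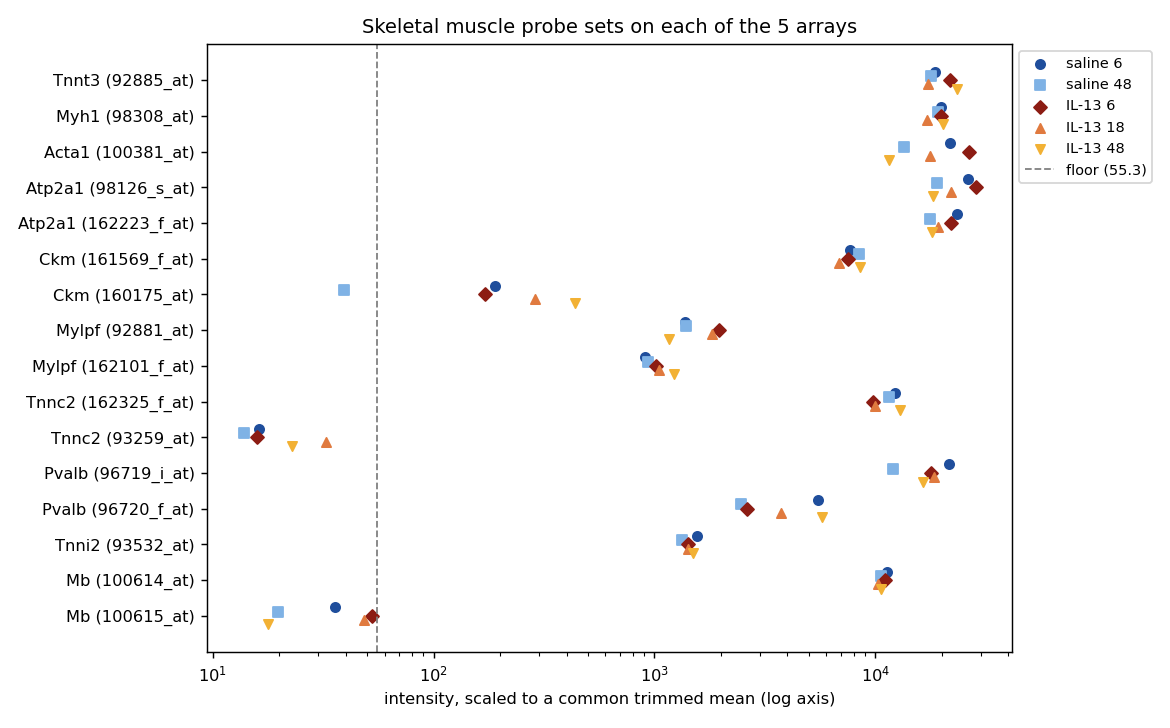
Intensity of each of the 16 member probe sets (rows) on each of the 5 arrays (points), on a log axis; the dashed line is the floor of 55.3 below which values were not ordered. The points of most rows lie close together at 911.3 or higher, while 1 probe set each of Tnnc2 and Mb lies below the floor on all arrays and 1 of Ckm spreads from 39.19 to 436.6.

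Among the filament proteins, Myh1, the heavy chain of fast IIx fibres, read 19964 for saline 6 and 19236 for saline 48, against 19920, 17108 and 20346 for IL-13 6, 18 and 48. The treatments overlap, IL-13 18 is the lowest array, and the highest array is 1.19 times the lowest. Acta1, the actin of skeletal muscle thin filaments, read 21714 and 13540 for the saline pair, against 26556, 17742 and 11569 for IL-13 6, 18 and 48. Both arrays numbered 6 are above the other 3, IL-13 48 is the lowest, and the highest array is 2.30 times the lowest.

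Mylpf, the regulatory light chain of fast myosin, has 2 probe sets. On 92881_at it read 1372 for saline 6 and 1390 for saline 48, against 1953, 1821 and 1159 for IL-13 6, 18 and 48, with IL-13 6 and IL-13 18 above both saline arrays and IL-13 48 below them. On 162101_f_at it read 911.3 and 935.5 for the saline pair, against 1013, 1044 and 1231 for IL-13 6, 18 and 48. There all IL-13 arrays lie above both saline arrays, which holds for 1 of the 14 member probe sets and for 14.8% of all tested. The probe sets disagree on IL-13 48, the lowest array on the first and the highest on the second. The endings _f_at, _s_at and _i_at mark probes that related transcripts may share or that were chosen under relaxed rules.

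The troponin complex holds the thin filament shut until calcium arrives. Tnnt3, the fast troponin T that ties the complex to tropomyosin, read 18733 for saline 6 and 17916 for saline 48, against 21827, 17392 and 23415 for IL-13 6, 18 and 48. It was the brightest of all 12422 probe sets on IL-13 48, and the treatments overlap because IL-13 18 lies below both saline arrays. Tnni2, the fast inhibitory subunit, read 1560 and 1338 for the saline pair, against 1417, 1419 and 1495 for IL-13 6, 18 and 48. All IL-13 arrays of Tnni2 lie between the saline arrays.

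Tnnc2, the fast calcium-binding subunit, read 12262 for saline 6 and 11587 for saline 48, against 9742, 9957 and 12996 for IL-13 6, 18 and 48 with 162325_f_at. IL-13 6 and IL-13 18 are below both saline arrays and IL-13 48 is above them. Its other probe set, 93259_at, read 13.81 to 32.43 and stayed under the floor of 55.3 throughout, which leaves no fold to report. Which of the probe sets follows the transcript was not tested.

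Calcium handling was read by Atp2a1 and Pvalb. Atp2a1, the calcium pump of the fast sarcoplasmic reticulum, read 26423 for saline 6 and 18995 for saline 48, against 28479, 22056 and 18192 for IL-13 6, 18 and 48 with 98126_s_at. With 162223_f_at it read 23555 and 17679 for the saline pair, against 22005, 19341 and 18053 for IL-13 6, 18 and 48. On both probe sets the arrays numbered 6 are the highest, IL-13 18 is in the middle and the arrays numbered 48 are the lowest, within 1.57-fold and 1.33-fold.

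Pvalb, a calcium buffer that speeds the relaxation of fast fibres, read 21633 for saline 6 and 12087 for saline 48, against 17917, 18520 and 16405 for IL-13 6, 18 and 48 with 96719_i_at. With 96720_f_at it read 5512 and 2461 for the saline pair, against 2615, 3750 and 5759 for IL-13 6, 18 and 48. Saline 48 is the lowest array on both. The probe sets disagree on IL-13 48, which is the highest array on 96720_f_at and next to the lowest on 96719_i_at.

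Energy and oxygen supply were read by Ckm and Mb. Ckm, the muscle creatine kinase that restores ATP from phosphocreatine, read 7684 for saline 6 and 8439 for saline 48, against 7552, 6867 and 8559 for IL-13 6, 18 and 48 with 161569_f_at, a spread of 1.25-fold. With 160175_at it read 189.4 and 39.19 for the saline pair, against 170.1, 288.1 and 436.6 for IL-13 6, 18 and 48. Saline 48 is below the floor there, so IL-13 48 was at least 7.90-fold higher than saline 48 by this probe set, while the bright probe set gave 1.01-fold for the same arrays. The large fold of Ckm between the arrays numbered 48 therefore rests on 1 dim probe set.

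Mb, the oxygen-binding myoglobin that heart muscle also makes, read 11303 for saline 6 and 10659 for saline 48, against 11116, 10263 and 10595 for IL-13 6, 18 and 48 with 100614_at. That is the narrowest spread of the tested member probe sets, 1.10-fold, with the treatments overlapping. Its other probe set, 100615_at, read 17.76 to 52.7 and was below the floor throughout. In Ckm, Tnnc2 and Mb, 1 probe set was thus bright and the other dim or below the floor.

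The design asks which transcripts differ after IL-13. Over all 5 arrays, the log2 differences of IL-13 and saline for the 14 tested probe sets ran from -0.14 (Tnnc2, 162325_f_at, SE 0.20) to 1.44 (Ckm, 160175_at, SE 0.59). Their median was 0.02, against 0.04 for all 7811 tested probe sets, with 8 above 0 and 6 below. None of the 14 passed limma with Benjamini-Hochberg adjustment over all tested probe sets, where 0.0512% passed, 1 as higher (0.0128%) and 3 as lower (0.0384%). At an unadjusted p under 0.05 the count was 1 of 14, Ckm by 160175_at, against 9.26% of all tested. Since the genes were chosen with results of these arrays known, nothing is read from these counts.

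After the dim Ckm probe set, the widest differences were in Mylpf (0.24, SE 0.17, by 162101_f_at, and 0.22, SE 0.26, by 92881_at) and in Tnnt3 (0.18, SE 0.19). Acta1 differed by 0.04 (SE 0.38), Atp2a1 by 0.01 (SE 0.26) on 98126_s_at and -0.05 (SE 0.20) on 162223_f_at, and Myh1 by -0.04 (SE 0.17). Pvalb differed by 0.12 (SE 0.27) on 96719_i_at and 0.06 (SE 0.44) on 96720_f_at. Mb differed by -0.04 (SE 0.16), and Ckm by -0.08 (SE 0.18) on its bright probe set. All of these but that of Mylpf 162101_f_at are smaller than their SE. For 0 of the 14 did every IL-13 array lie under the saline pair, as it did for 11% of all tested. Leaving out 1 array moved the difference of Acta1 between -0.30 and 0.38, that of Pvalb 96719_i_at between -0.30 and 0.54 and that of 96720_f_at between -0.52 and 0.64. The difference of Ckm 160175_at was 2.33 without saline 6 and 0.55 without saline 48, and 0.50 with the floor at the pooled 40th percentile of intensity.

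**Figure D2:**
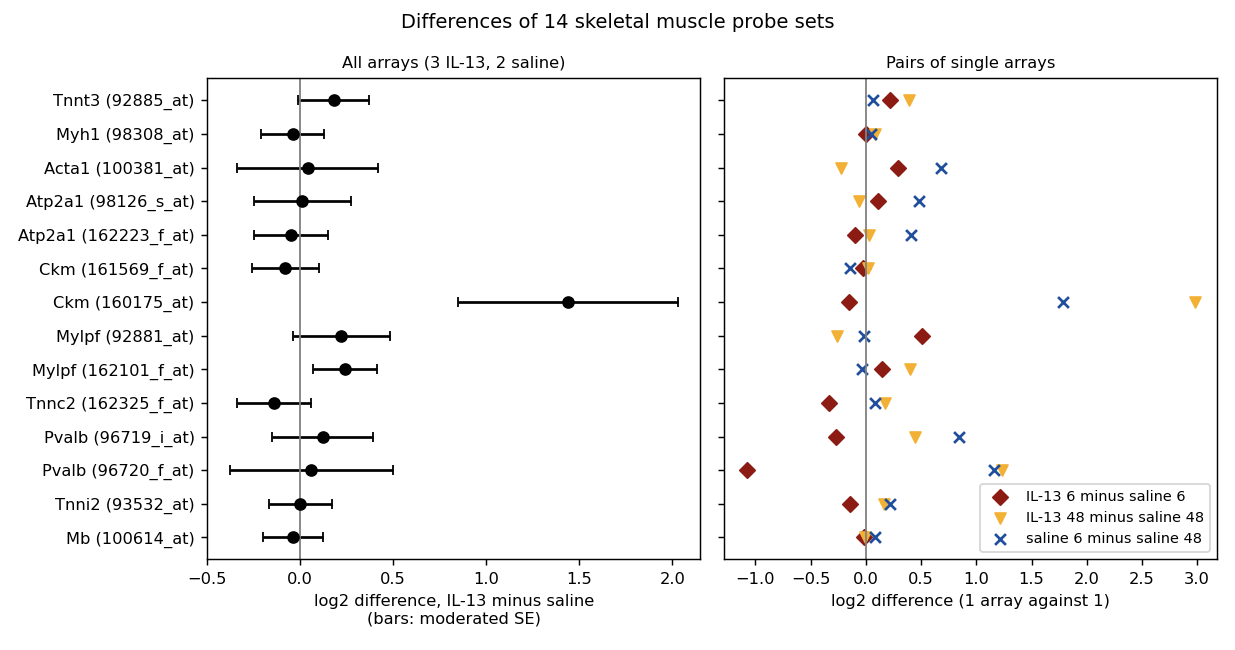
Log2 differences of the 14 tested member probe sets (rows). The left panel shows IL-13 minus saline over all arrays with the moderated SE as bars, and the right panel shows single arrays against each other, without error. Apart from Ckm 160175_at at 1.44, the left-hand points lie between -0.14 and 0.24, and on the right Ckm 160175_at and Pvalb 96720_f_at lie farthest from 0.

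Single arrays were compared at matching title numbers, where there is no replicate and so no test. Between IL-13 6 and saline 6 the median log2 difference of the 14 was -0.02, with 5 above 0 and 9 below, against 0.05 for all tested. No member was at least 2-fold higher (2.88% of all tested), and 1 was at least 2-fold lower (3.15%), Pvalb by 96720_f_at at -1.08. Between IL-13 48 and saline 48 the median was 0.12, with 10 above 0 and 4 below, against 0.02 for all tested. There 2 member probe sets were at least 2-fold higher (0.935%), Ckm by 160175_at and Pvalb by 96720_f_at (2.34-fold), and 0 were at least 2-fold lower (1.69%).

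The saline arrays also differed from each other. The median of saline 6 minus saline 48 was 0.15 on the log2 scale, with 11 above 0 and 3 below, against -0.06 for all tested and 0.20 for probe sets above 10000 on all arrays. Pvalb by 96720_f_at was the 1 member at least 2-fold higher on saline 6 with a value above the pooled median intensity of 343.0 (2.34%), and none was at least 2-fold lower (2.56%). In these comparisons an array serves more than once, so their values are given side by side. With the other saline array as the control the median became 0.20 for IL-13 6 and -0.02 for IL-13 48.

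The arrays numbered 6 were set against those numbered 48 within each treatment. Both arrays numbered 6 lay above both numbered 48 for 5 of the 14 probe sets, those of Acta1 and Mb (100614_at), both of Atp2a1, and 96719_i_at of Pvalb, and for 16.2% of all tested. Acta1 was 1.60 times as high on saline 6 as on saline 48 and 2.30 times as high on IL-13 6 as on IL-13 48. For Atp2a1 (98126_s_at) these folds were 1.39 and 1.57. Mb differed by 1.06 and 1.05 times. IL-13 48 was the highest array for 7 of the 14 (18.5% of all tested), saline 6 for 4 (21.4%), IL-13 6 for 3 (19.6%), and saline 48 (20.3%) and IL-13 18 (20.1%) for 0. The members thus had no common order of arrays.

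The other genes of fast fibres, or of skeletal muscle in general, were read next. Of 56 such genes listed, 40 were on the array and 37 were tested, and 0 passed limma with adjustment in either direction (1 at an unadjusted p under 0.05, Ckmt2). Their median log2 difference of IL-13 and saline was 0.04, with 23 above 0 and 14 below, 34 of 37 spread less than 2-fold, and the median spread was 1.43-fold. Myh4, the heavy chain of the fastest fibres, read 17952 and 10039 for the saline pair, against 18668, 12614 and 11178 for IL-13 6, 18 and 48. Myh4, like Acta1, was highest on both arrays numbered 6 (log2 difference 0.04, SE 0.33). The probes of myosin heavy chain genes may take up related transcripts, because these genes are much alike.

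Myl1, the fast alkali light chain, read 13133 to 18114, and Casq1, which stores calcium in the fast sarcoplasmic reticulum, 11961 to 16492. Pygm, the muscle glycogen phosphorylase, read 12423 to 16642. Eno3, the muscle enolase of glycolysis, read 11084 to 17722, and the LIM protein gene Fhl1 13414 to 16294. The log2 differences of IL-13 and saline were 0.04 for Myl1 (SE 0.21), 0.31 for Casq1 (SE 0.17) and -0.10 for Pygm (SE 0.19), -0.02 for Eno3 (SE 0.27) and 0.01 for Fhl1 (SE 0.18). Of the untested genes, Myh2, the heavy chain of fast oxidative fibres, read 15.29 to 63.78, and Myh3, an embryonic heavy chain, 25.54 to 79.8.

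**Figure D3:**
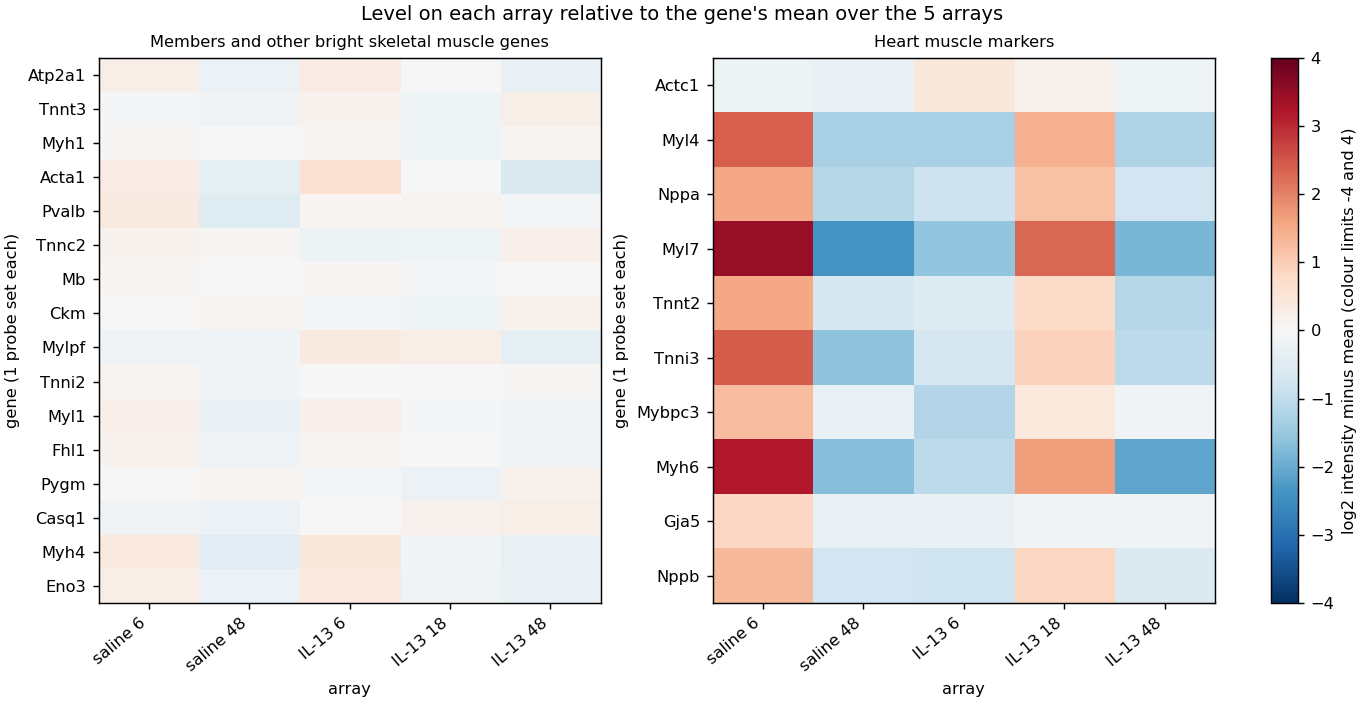
Log2 intensity of each gene on each array minus its mean over the 5 arrays, as colour, for 10 members and 6 other skeletal muscle genes (left) and 10 tested heart muscle markers (right). The skeletal muscle rows are pale on all arrays, and the heart rows other than Actc1 are reddest on saline 6.

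Of 23 muscle regulators and genes of the nerve-muscle junction listed, 21 were on the array and 15 were tested, with 0 passing in either direction (0 at an unadjusted p under 0.05), 11 above 0 and 4 below, and a median log2 difference of 0.20. Mef2d, a transcription factor of muscle genes, read 6938 and 6903 for the saline pair, against 6442, 5102 and 4567 for IL-13 6, 18 and 48 (-0.38, SE 0.20). Mef2d was lower on each IL-13 array than with saline, which holds for 11% of all tested probe sets. Mstn, the muscle growth inhibitor myostatin, read 1639 and 1174 for the saline pair, against 2854, 1290 and 1134 for IL-13 6, 18 and 48. Mef2a and Mef2c, of the same family as Mef2d, differed by -0.31 (SE 0.20) and 0.14 (SE 0.23). Of the acetylcholine receptor subunits, Chrnb1 differed by 0.44 (SE 0.19) and Chrne by 0.30 (SE 0.36). Mef2a was also below both saline arrays on every IL-13 array. Chrnb1 was above both on every IL-13 array, and so were the dimmer Myog, Myf6, Six4 and Chrna1 of the tested genes in this list. The same order holds for 14.8% of all tested.

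Most slow muscle genes are also used by the heart ventricle. All 9 on the array of 10 listed were tested, 0 passed (0 at an unadjusted p under 0.05), 6 were above 0 and 3 below, with a median of 0.22 and a median spread of 1.82-fold. Myl3, the slow and ventricular light chain, read 8684 and 12305 for the saline pair, against 14453, 9451 and 12665 for IL-13 6, 18 and 48. Tnnt1, the slow troponin T, read 1200 and 1852 for the saline pair, against 1686, 1605 and 2519 for the IL-13 arrays. Myh7, the slow heavy chain, read 1839 and 921.1 for the saline pair, against 686.2, 1450 and 1626 for the IL-13 arrays, with saline 6 the highest. Atp2a2, the slow and heart calcium pump, differed by -0.21 (SE 0.27), Tpm3 by 0.11 (SE 0.29) and the slow troponin I Tnni1 by 0.22 (SE 0.22).

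Heart muscle markers, Actc1 apart, were highest on saline 6. Of 14 listed, 11 were on the array and none was below the floor on all arrays. Their summed intensity, Actc1 included, was 35389 on saline 6 and 12118 on saline 48, and 18794, 25269 and 13050 on IL-13 6, IL-13 18 and IL-13 48. Actc1 alone read 10239 and 9837 for the saline pair, against 16252, 13048 and 10527 for the IL-13 arrays. It thus made most of the sum on saline 48, IL-13 6 and IL-13 48, and the sum understates how far the other heart markers spread. The atrial light chain Myl7 was 58.09 times as high on saline 6 as on saline 48, and the atrial peptide gene Nppa read 2650 on saline 6, 2033 on IL-13 18 and 415.8 to 537.2 on the others. The summed intensity of the 10 members was 142648 and 115186 for the saline pair, against 146479, 123146 and 124730 for the IL-13 arrays, at most 1.27-fold apart. The median spread of the tested genes was 6.39-fold for heart markers and 1.34-fold for the members, and this difference was not tested. Actc1, the heart actin, spread 1.65-fold, by an _f_at probe set whose probes other actins may share.

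Markers of other tissues varied among the arrays too, and no gene of these lists on the array was at the floor throughout. Smooth muscle markers (7 of 8 on the array) summed to 27425 and 25334 for the saline pair, against 31794, 32234 and 25192 for the IL-13 arrays. Fat markers (6 of 8) summed to 39097 on saline 6 and 18054 to 20548 on the others. The sum was led by Ucp1, the uncoupling protein of brown fat, at 16458 on saline 6. Adipoq, Cidea and Cidec were also highest there, and Fabp4 was too but spread only 1.32-fold. Lep went the other way, lowest on saline 6 (930.9) and highest on IL-13 6 (1948). Thyroid and parathyroid markers (4 of 7) summed to 28012 to 37982, with Tg, the thyroid hormone precursor, at 13170 to 25516 and Pth, the parathyroid hormone, at 8658 to 13790. Tg was highest on both arrays numbered 6, but the others did not share this. Pth and Pax8 (607.8 to 1494) were lowest on saline 6 and highest on saline 48. Tshr read 41.09 on saline 6 and 69.95 on IL-13 6, against 287.1 to 378.9 on the other arrays. Thymus and lymph node markers (7 of 7) summed to 11214 and 8228 for the saline pair, against 3628, 4841 and 3081 for the IL-13 arrays. Of these genes, only Cd8b1 and Cd3e were below both saline arrays on every IL-13 array. Glycam1 and Cd79a read less on saline 48 (93.66 and 277.5) than on IL-13 6 (746.9 and 527.7) and IL-13 48 (677.3 and 782.9). Dntt and Ccr9 were higher on IL-13 18 than on saline 6, and Rag1 had a log2 difference of 0.28. Squamous epithelium markers (7 of 7) include Krt4 and Krt13 of the oesophagus. This list summed to 29052 and 34662 for the saline pair, against 55913, 40418 and 43417 for the IL-13 arrays. In the same list Krt5 (26.96 to 103.3) and Krt14 (19.47 to 107.8) were near the floor and not tested. Cartilage markers (5 of 7) summed to 2037 to 4949, and lung markers (6 of 9) to 49415 on IL-13 18 and 25455 to 35155 on the others. The part of any of these tissues in the muscle signal was not tested.

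**Figure D4:**
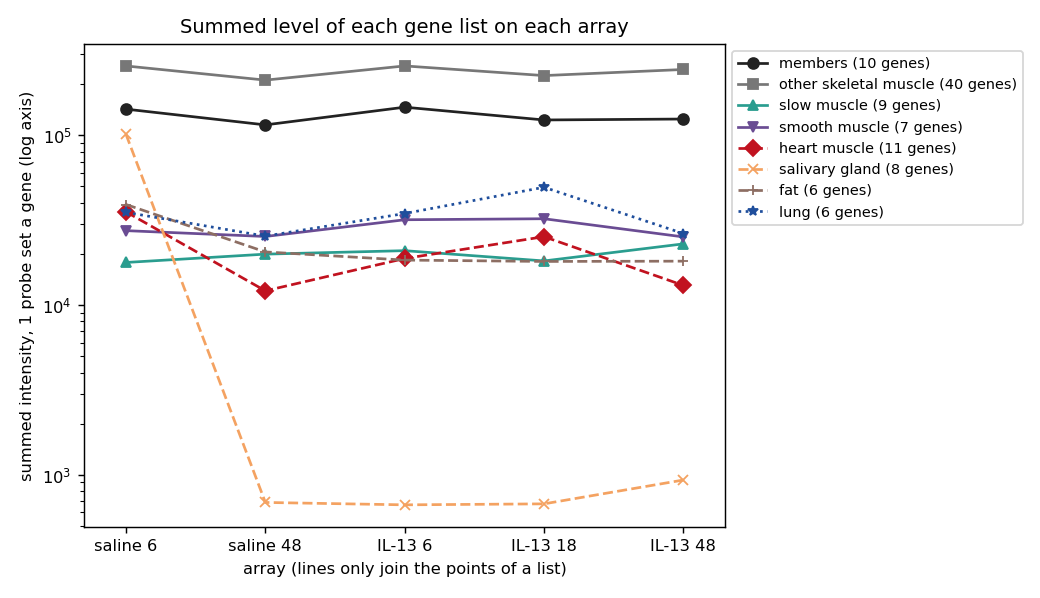
Summed intensity of the genes of each list on each array, 1 probe set a gene, on a log axis; lines only join points of a list. The members stay within 1.27-fold and the other fast or shared skeletal muscle genes within 1.21-fold over the 5 arrays. Heart markers, with the bright Actc1 in their sum, span 2.92-fold, fat markers 2.17-fold and salivary gland markers 153-fold, each highest on saline 6.

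Likeness of pattern was measured by Pearson's r over the 5 arrays with the mean of the members, each centred and by its brightest probe set. On the log2 scale that mean was 0.10 and -0.13 for the saline pair, against 0.14, -0.04 and -0.06 for the IL-13 arrays, so it spans little. Among 251 probe sets of named genes that span at least 2 log2 units, the closest were the transcription factor gene Tef (r 0.963), the kinase gene Tyk2 (0.951), the ribosomal protein gene Rpl41 (0.940, _f_at), Sac3d1 (0.932, _f_at) and H2-M10.1 (0.914). They were followed by the clock gene Per2 (0.890), the chemokine receptor gene Ccr6 (0.886), the keratin gene Krt4 (0.859, _f_at), the growth factor gene Bmp7 (0.848) and the clock output gene Dbp (0.841). Tef read 4075 and 918.4 for the saline pair, against 3082, 1326 and 1324 for IL-13 6, 18 and 48, high on both arrays numbered 6. With 5 arrays that share 1 scaling, these values are a description.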

How the data were processed

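RNA labelled as murine lung was measured on 5 arrays. The deposited table holds intensity on a linear scale for 12488 probe sets. For software, background correction and scaling target, the sources used here say nothing. The deposited intensity values show that the authors scaled the arrays, since their 2% trimmed mean is 800.39 to 800.47 on each. Control probe sets (66) were left out. Symbols came from the platform annotation (1 symbol for 10833 probe sets, several for 396, none for 1193). For 10817 the gene number was found in RefSeq and its symbol there was used, which can equal the annotated one.

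After scaling to equal trimmed means, intensities under the 20th percentile of all values (55.3) were raised to it before log2. The test took probe sets that exceed the 40th percentile (210.2) on 2 or more arrays. They were tested with limma 3.58.1 in R 4.3.3 (lmFit, eBayes), with treatment as the only term, two-sided, calling adjusted p under 0.05 after Benjamini-Hochberg. The SE given is limma's moderated one. A pair of arrays was counted as 2-fold apart where the higher value exceeded the pooled median. On simulated data of 7811 probe sets, 97 of 100 changes of 2 log2 units and 99 of 100 of 4 were called, with 13 false calls. The simulated noise was normal, with limma's moderated SD, and independent between probe sets. Differences that many genes of an array share were not simulated, so these rates need not hold for the real arrays. Members and lists were chosen with earlier results of these data known. All member probe sets are named. Of each other muscle list the 6 brightest genes were eligible. Myh2, Myh3, Ckmt2, Myog, Myf6, Six4 and Chrna1 lie outside that rule and were named after their values were seen. The markers shown were likewise picked from their lists. Promoters are RefSeq sequences. Precision is limited by having 5 arrays. Plots used matplotlib 3.10.9.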

Additional observations from a re-analysis of the deposited data

Results flagged for a closer look

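For 11 of the 14 tested member probe sets the IL-13 array lay on opposite sides of its saline array at title numbers 6 and 48, as it did for 45.5% of all tested probe sets. Each side is 1 array against 1, and the difference was not tested. The log2 difference at 48 minus that at 6 was 3.14 for Ckm by 160175_at and 2.30 for Pvalb by 96720_f_at. It was 0.71 for Pvalb by 96719_i_at, 0.50 for Tnnc2, 0.30 for Tnni2, 0.13 for Atp2a1 by 162223_f_at, 0.08 for Myh1 and 0.05 for Ckm by 161569_f_at. It was -0.77 for Mylpf by 92881_at, -0.52 for Acta1 and -0.17 for Atp2a1 by 98126_s_at. The Ckm value of 3.14 comes from saline 48 below the floor and from a probe set that its bright partner does not follow.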

How the results depend on the processing

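No member probe set passed limma under any of the 13 alternatives run. Over all probe sets, the 4 that passed became 0 with a floor at the 10th or the 40th percentile, with no filter, with title number as a block and with trend and robust settings, and 1 with the filter at the 60th percentile. Leaving out 1 array gave 0 to 13, with 13 without saline 48 and 1 without saline 6. The causes were not tested. The median member difference of IL-13 and saline (0.02) ranged from -0.10 without saline 48 to 0.21 without saline 6, and was 0.04 with the block over the 4 arrays numbered 6 and 48. The labels do not say that the numbers pair arrays, and the differences of 6 and 48 within saline and within IL-13 correlated at 0.13 over the 7811 probe sets. With the other saline array as control, the median of IL-13 6 moved from -0.02 to 0.20 and that of IL-13 48 from 0.12 to -0.02. Quantile normalization took the median of saline 6 minus saline 48 from 0.15 to 0.04. Of 140 values of single member probe sets, 133 moved by less than 1 SD between arrays, and 17 differed in sign from the value reported. The 133 are no measure of robustness, because many could not reach 1 SD. Leaving out 1 IL-13 array cannot reach it, since that array also enters the SD. The deposited values were already scaled alike, and the floors touch only the dim Ckm probe set. The block gave the same values as leaving out the IL-13 array that shares no title number with saline. Of the 7 that moved by 1 SD or more, 6 came from leaving out a saline array. The median with 1 probe set per gene, added after the data were seen, was 0.00. Values below the floor have no order, and saturation was not tested.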
